A study of Homo sapiens with 6 samples.

Results

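Interferon-stimulated genes are the genes that cells switch on when interferon binds its receptor, and 33 of them were followed here in LNCaP prostate cancer cells with and without RB. The members were taken as a fixed list of gene symbols and matched to the count table through the Ensembl transcript ID of each row. The table holds 22279 IDs, and 32 of the 33 genes had a row, 1 each. The gene without a row, IFI27, was not analysed here. Of the 32, 26 had enough counts to be tested, and BST2, DHX58, IFI44L, MX2, OAS1 and OAS2 did not.

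Type I interferons bind the receptor pair IFNAR1 and IFNAR2, whose kinases JAK1 and TYK2 phosphorylate STAT transcription factors such as STAT2. With IRF9 these form a complex that binds the interferon-stimulated response element (ISRE) in the promoters of target genes. The products sense viral RNA, block translation or virus entry, and tag proteins with the ubiquitin-like modifier ISG15. Many are also transcribed at a low level without interferon. LNCaP cells have been described as poorly responsive to interferon, with little JAK1.

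LNCaP is an established human cell line from an androgen-sensitive prostate tumour. The shCON libraries (n = 3) come from LNCaP cells with a control hairpin and the shRB libraries (n = 3) from LNCaP cells with a hairpin against RB, the retinoblastoma protein. Both groups were given CDT for 72 h, tagged in the labels as arresting the cell cycle, and the series describes the condition as hormone deficient. No interferon treatment is named in the labels. The labels name 1 hairpin per group, so loss of RB and other differences between the 2 cell populations cannot be told apart. They do not say whether replicates were separate cultures, and p-values measure only the spread between these libraries, which may be technical. In bulk RNA, fewer cells expressing a gene and less RNA per cell cannot be told apart.

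Library totals ran from 6115310 to 20091488 counts. RB1 stood at 54.7 ± 1.93 CPM in shCON (SD, n = 3; CPM is the count scaled by the TMM-adjusted library total) and at 5.02 ± 1.06 CPM in shRB, which left 9.18% of the control level, and every library matched its label. All 10 luminal prostate markers checked were detected, among them KLK3 and HOXB13. Of 10 leukocyte markers, 7 were at 0 in both groups, including PTPRC and CD3E, and the list summed to 5.72 to 7.41 CPM in shCON and 5.22 to 5.41 CPM in shRB. The fibroblast list summed to 18.5 to 23.1 and 13.6 to 17.5 CPM, with COL1A2 and PDGFRA at 0. The endothelial list summed to 8.17 to 10.7 and 1.73 to 3.71 CPM, all of it from VWF, with PECAM1, CDH5, KDR and TEK at 0. The part of these non-prostate markers in the results was not tested. The library shRB 2 stood apart by its counts, with a chi-square of 11.3 and 11.4 per degree of freedom against the other shRB libraries, where other replicate pairs gave 2.23 to 5.89. Deviations from the group mean followed transcript GC content in both groups: the Spearman correlation over 11674 genes reached 0.53 for shCON 2 and 0.69 for shRB 2, against −0.51 for shCON 1, −0.09 for shCON 3, −0.51 for shRB 1 and −0.54 for shRB 3. Genes are not independent replicates, and these correlations describe the libraries only.

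Most members with a promoter sequence hold the letters of the ISRE core near the gene start. The core searched was GAAA, any 2 bases and GAAA again, on both strands, in windows from 250 bases before to 50 after each gene start (RefSeq, build GRCh38.p14). Windows were found for 25 of the 33 members, and not for IFIT2, MX2, OAS2, OASL, IFITM2, IRF7, DHX58 and USP18. The core occurred in 19 of these 25 genes (76.0%) and in 4.38% of all 27305 genes with a window. It was present in 3 of the 4 members with a window that were higher in shRB, in all 6 that were lower and in 7 of the 11 that did not pass the test below. In ISG20, IFITM3, MX1 and TRIM21, which were lower, every core found lies downstream of the counted transcript's 5′ end. The same holds for IFITM1 and EIF2AK2, which did not pass. The stretches shown are from members whose RNA changed and whose core lies upstream of the counted transcript's 5′ end, with up to 20 bases on either side and the matched letters in capitals. They let genes that moved in opposite directions be compared: RSAD2, IFIT1 and IFIT3 were higher in shRB, and ISG15 and IFI6 were lower.
RSAD2 (chr2:6877612-6877661, + strand): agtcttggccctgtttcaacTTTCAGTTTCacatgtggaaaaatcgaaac
IFIT1 (chr10:89392487-89392545, + strand): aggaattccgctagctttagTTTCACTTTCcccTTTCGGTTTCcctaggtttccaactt
IFIT3 (chr10:89327821-89327893, + strand): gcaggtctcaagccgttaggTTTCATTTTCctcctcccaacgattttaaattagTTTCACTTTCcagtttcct
ISG15 (chr1:1013364-1013419, + strand): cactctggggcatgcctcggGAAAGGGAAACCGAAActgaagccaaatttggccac
IFI6 (chr1:27672256-27672368, − strand): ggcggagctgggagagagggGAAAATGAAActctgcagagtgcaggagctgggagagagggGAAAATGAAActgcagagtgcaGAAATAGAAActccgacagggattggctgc
The 2 cores of ISG15 overlap, the 3 cores of IFI6 lie within 113 printed bases, and RSAD2 holds 1 core. Cores were thus found in genes of both directions. A match describes letters only and is not a binding site. The E2F core (TTTCCCGC or TTTGGCGC, both strands), which was searched because RB restrains E2F factors, occurred in 3 of the 25 genes, OAS3, IFIH1 and RSAD2, against 2.75% of all genes. In OAS3 the E2F core lies downstream of the counted transcript's 5′ end, and in IFIH1 it lies upstream. In RSAD2 it lies only in the window of another start, 11780 bases upstream of the counted transcript's 5′ end.

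Before any comparison, the levels of the members differed widely. Per transcript length, in RPKM (CPM per kilobase of the counted transcript), ISG15 was the most abundant at 181.4 ± 6.94 in shCON and 141.5 ± 17.8 in shRB. IFITM3, which blocks virus entry at endosomes, followed at 83.9 ± 3.14 and 56.7 ± 5.40 RPKM, and IFI6, a small membrane protein, at 34.5 ± 2.83 and 25.1 ± 4.93 RPKM (SD, n = 3 for all). These are levels, and the ranges of neighbours in this order of 3 did not overlap in either group. Of the 32 members with a row, 20 had a mean RPKM below the 25th percentile of all tested IDs. These 20 include BST2, DHX58, IFI44L, MX2, OAS1 and OAS2, which were too low to be tested, although the percentiles cover tested IDs only. Of all 22279 IDs, 11712 were tested, beside 26 of the 32 members. Set against tested IDs only, the members sat mostly at the low end, with ISG15 at the 95.7th percentile.

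Across the 26 tested members, 5 rose in shRB, 7 fell and 14 did not pass (edgeR quasi-likelihood test, Benjamini-Hochberg adjusted p under 0.05 over all genes). Of all 11712 IDs tested, 12.8% passed as higher, 12.5% as lower and 25.3% in either direction, beside 46.2% of the tested members. The median log2 fold change was −0.16 over the tested members and −0.0062 over all IDs tested, and members passed in both directions. The size of change, taken as the median absolute log2 fold change, was 0.40 over the members and 0.19 over all IDs. These medians were not matched for level, and many of the tested members were low among tested IDs. RSAD2 passed the filter on low counts only through the shRB libraries, so it had to differ, and these summaries over tested members describe them without testing the group. The CPM of the 2 groups did not overlap in 14 of the 26 members (53.8%), beside 41.1% of all IDs tested. The risers were RSAD2, OASL, IFIT3, IFIT1 and IFI35, and the fallers IFITM2, ISG20, IFITM3, MX1, TRIM21, IFI6 and ISG15. Without shCON 3 or without shRB 3 the number that fell was 4, and the number that rose was 4 to 5 with any 1 library left out.

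**Figure D1:**
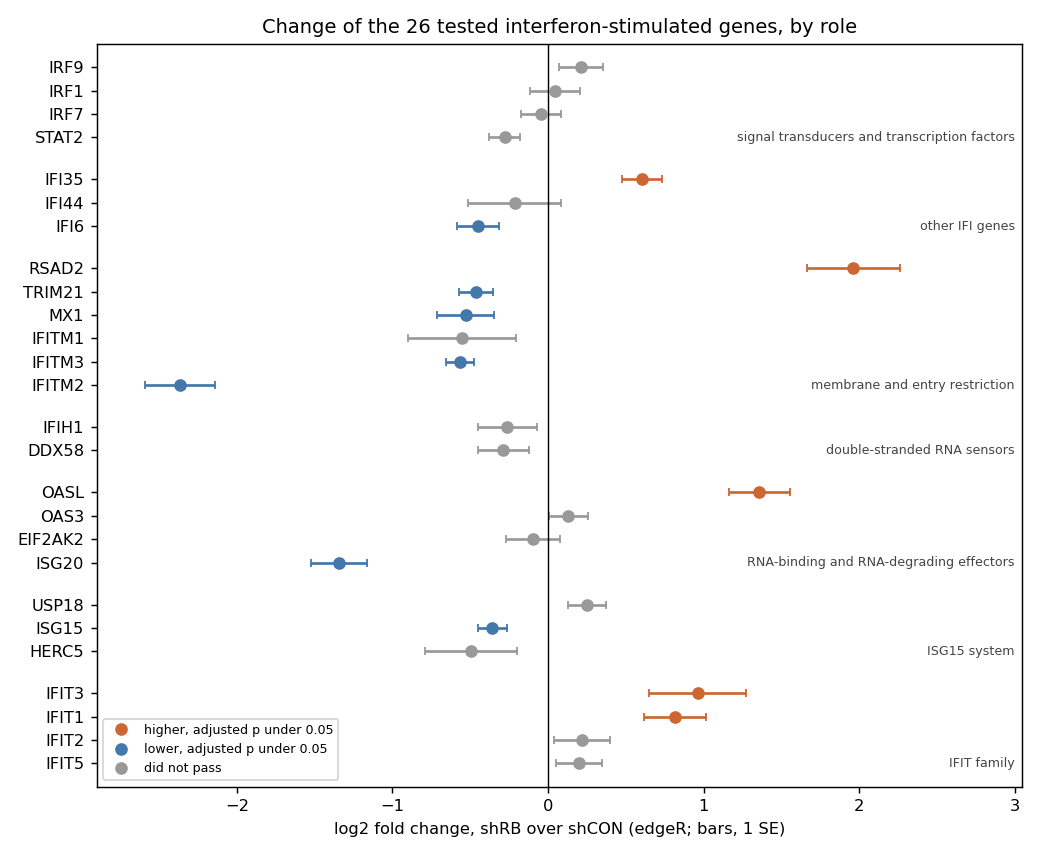
Log2 fold change (shRB over shCON) of the 26 tested interferon-stimulated genes, grouped by role, with bars of 1 SE from edgeR. The 5 genes in orange rose and the 7 in blue fell, and both colours occur among the RNA-binding effectors and the membrane and entry group.

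Among the 4 tested effectors that bind or degrade RNA, 1 rose and 1 fell, beside 25.3% of all IDs tested that passed in either direction. OASL, an oligoadenylate synthetase-like protein without synthetase activity that enhances RNA sensing, read 3.24, 3.11 and 2.29 CPM in shCON 1 to 3 and 6.10, 8.59 and 8.60 CPM in shRB 1 to 3. All shRB libraries were above all shCON libraries, and the log2 fold change was 1.36 ± 0.20 (SE; edgeR adjusted p = 0.00024). ISG20, a 3′ to 5′ exonuclease, read 7.66, 10.05 and 8.01 CPM in shCON and 3.73, 3.29 and 3.00 CPM in shRB, again without overlap. Its log2 fold change was −1.34 ± 0.18 (SE; edgeR adjusted p = 0.00012). OASL and ISG20 thus changed by similar amounts in opposite directions.

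The other members with this role did not pass. OAS3, a synthetase of 2′-5′ oligoadenylates, averaged 15.4 ± 1.23 CPM in the shCON libraries and 16.99 ± 1.89 CPM in the shRB ones (edgeR adjusted p = 0.49). EIF2AK2 encodes PKR, the kinase that halts translation when it meets double-stranded RNA, and read 22.4, 20.4 and 23.5 CPM in shCON and 25.04, 13.7 and 22.8 CPM in shRB (edgeR adjusted p = 0.73). Only shRB 2 was low for EIF2AK2, whose transcript has 40.4% GC, and without shRB 2 its log2 fold change turned from −0.10 to 0.13. OAS1 had 33 counts summed over shCON and 14 over shRB, and OAS2 had 3 and 5, both too few to be tested.

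The IFIT genes are neighbours on chromosome 10 whose proteins bind foreign RNA ends or support those that do. They were split between 2 that rose and 2 that did not pass, beside 12.8% of all IDs tested that were higher. IFIT1 read 3.49, 2.51 and 2.29 CPM in shCON and 5.37, 4.67 and 5.51 CPM in shRB. The groups did not overlap, and the log2 fold change was 0.81 ± 0.20 (SE; edgeR adjusted p = 0.0089). IFIT3, which binds and stabilizes IFIT1, read 1.87, 0.70 and 0.98 CPM in shCON and 2.19, 2.86 and 3.00 CPM in shRB. The shCON spread was wide, with shCON 1 close to shRB 1. The log2 fold change of IFIT3 was 0.96 ± 0.31 (SE; edgeR adjusted p = 0.037), with only 1 shCON library past the count filter. The call was lost without shCON 2 (0.72, adjusted p = 0.12), shCON 3 (0.88, adjusted p = 0.098) or shRB 3 (0.88, adjusted p = 0.11), with a range of adjusted p from 0.0058 to 0.12 over all alternatives. Without shCON 1 its log2 fold change was 1.70. IFIT2 was 5.63 ± 1.07 and 6.32 ± 0.95 CPM and IFIT5 12.9 ± 2.33 and 14.9 ± 1.41 CPM (SD, n = 3; edgeR adjusted p of 0.41 and 0.35), and their groups overlapped. Whether the IFIT genes differed from one another in their change was not tested.

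The proteins that act at membranes or restrict entry held the largest changes in both directions. RSAD2 encodes viperin, which makes a chain-terminating nucleotide, and read 0.59, 0.60 and 0.49 CPM in shCON and 2.09, 2.02 and 2.71 CPM in shRB, that is 21 counts against 70. Its log2 fold change was 1.96 ± 0.30 (SE; edgeR adjusted p = 0.00036), the largest rise among the tested members. IFITM2, an endosomal relative of IFITM3, read 7.12, 5.93 and 7.19 CPM in shCON and 1.09, 1.80 and 1.06 CPM in shRB, that is 248 counts against 40. Its log2 fold change was −2.37 ± 0.23 (SE; edgeR adjusted p = 7.7e-06), the largest fall among them. The IFITM2 groups were far apart compared with the spread within them, and RSAD2, which passed the filter only through shRB, had to differ.

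IFITM3 fell less. It read 67.2, 65.6 and 70.6 CPM in shCON and 45.8, 50.2 and 41.5 CPM in shRB (log2 fold change −0.56 ± 0.09 SE; edgeR adjusted p = 0.00058), with no overlap. IFITM1, which acts at the cell surface, was 1.83 ± 0.61 and 1.12 ± 0.41 CPM (SD, n = 3; edgeR adjusted p = 0.27), and its groups overlapped. The 3 genes lie together on chromosome 11 and are close copies. Of the 50-base windows in the counted transcript, 42.3% in IFITM1, 20.3% in IFITM3 and 15.7% in IFITM2 also occur in a transcript of another gene, so reads may be shared and single values are uncertain. With the 3 rows summed, which was chosen after seeing the data, the log2 fold change was −0.66 ± 0.09 (SE; edgeR adjusted p = 0.00019).

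**Figure D2:**
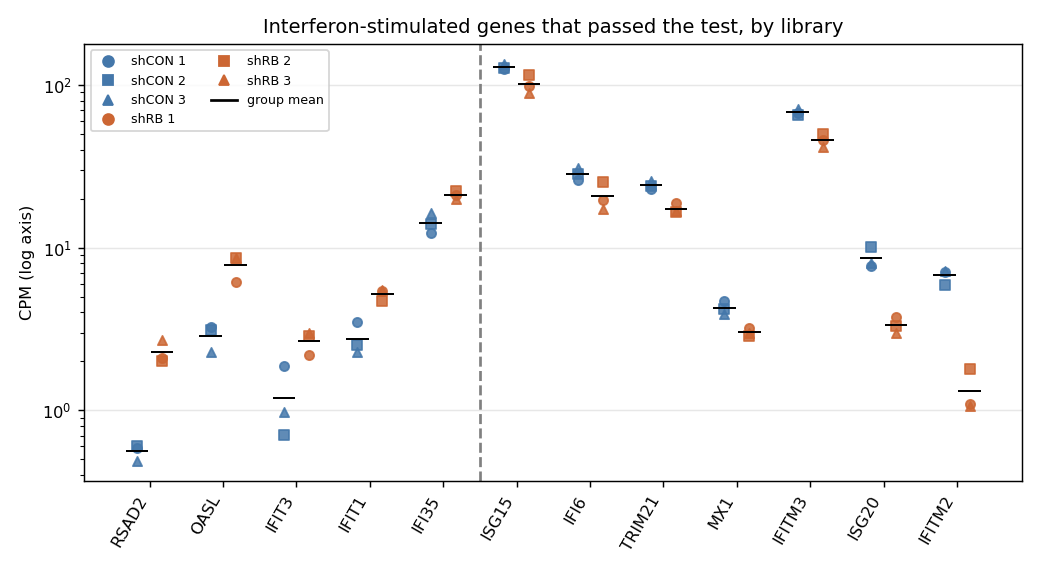
CPM (log axis) of the 12 interferon-stimulated genes that passed the test, with 1 symbol per library and a bar at each group mean; genes left of the dashed line rose in shRB and those right of it fell. In each of the 12 genes the 3 shRB libraries lie on 1 side of the 3 shCON libraries.

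TRIM21, an antibody receptor in the cytosol and ubiquitin ligase, read 22.9, 23.8 and 25.5 CPM in shCON and 18.8, 16.6 and 16.7 CPM in shRB (log2 fold change −0.46 ± 0.11 SE; edgeR adjusted p = 0.0077). MX1, a dynamin-like GTPase on chromosome 21 that traps viral particles, read 4.66, 4.22 and 3.92 CPM in shCON and 3.19, 2.86 and 3.00 CPM in shRB. The groups did not overlap, but the log2 fold change of −0.53 ± 0.18 was only just past the threshold (SE; edgeR adjusted p = 0.048). Leaving out any 1 library ended the MX1 call, with log2 fold changes of −0.57 to −0.44, and over all alternatives the adjusted p ranged from 0.040 to 0.28. Of 123 tested IDs on chromosome 21, 78 were lower and 0 higher by edgeR, with a median log2 fold change of −0.38, and the part of this in the MX1 value was not tested. MX2, also on chromosome 21, had 1 count in shCON 2 and 0 in the other libraries. BST2, which encodes tetherin, had 37 counts in shCON and 15 in shRB and was not tested; without the filter its log2 fold change was −1.05 ± 0.47 (SE; edgeR adjusted p = 0.11).

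ISG15 and the enzymes that attach or remove it moved unequally. ISG15 read 124.9, 127.6 and 134.5 CPM in shCON and 98.8, 114.1 and 88.9 CPM in shRB. It was lower in every shRB library, with a log2 fold change of −0.36 ± 0.09 (SE; edgeR adjusted p = 0.012), and the call was lost without shCON 3 (−0.32, adjusted p = 0.068) or shRB 3 (−0.27, adjusted p = 0.056; range over alternatives 1.7e-06 to 0.068). USP18, the protease that removes ISG15 and also dampens the receptor, was 13.3 ± 0.82 and 15.6 ± 0.94 CPM (SD, n = 3) and did not pass (edgeR adjusted p = 0.15), although its groups did not overlap. Of the windows in its transcript, 23.4% also occur elsewhere, nearly all in its relative USP41. HERC5, the main ISG15 ligase, was near the filter at 1.89 ± 0.54 and 1.48 ± 0.42 CPM and did not pass (edgeR adjusted p = 0.24).

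The rest of the ISG15 conjugation system was taken from a list of 79 other interferon pathway genes. All 4 of its genes were tested, and 1 rose and 3 fell, beside 12.8% of all IDs tested that were higher and 12.5% that were lower. UBE2L6, the conjugating enzyme, rose from 2.89 ± 0.39 to 6.14 ± 1.31 CPM (log2 fold change 1.05 ± 0.20 SE; edgeR adjusted p = 0.0021). UBA7, the activating enzyme, fell from 2.16 ± 0.36 to 0.68 ± 0.34 CPM (−1.67 ± 0.34 SE; edgeR adjusted p = 0.0033). UBA7 passed the filter only through the shCON libraries, so it had to differ. The ligase HERC6 fell from 17.3 ± 1.12 to 11.8 ± 2.14 CPM and the ligase TRIM25 from 178.8 ± 3.57 to 142.6 ± 2.59 CPM (SD, n = 3; edgeR adjusted p of 0.013 and 0.0036). HERC6 did not pass without shCON 1, shCON 3 or shRB 1 (log2 fold changes of −0.53, −0.50 and −0.46, against −0.54 with all libraries).

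Among the remaining members named for induction by interferon, IFI35 rose and IFI6 fell. IFI35, a leucine-zipper protein, read 12.2, 13.96 and 16.3 CPM in shCON and 20.9, 22.4 and 19.8 CPM in shRB (log2 fold change 0.60 ± 0.13 SE; edgeR adjusted p = 0.0039). IFI6 read 26.1, 28.2 and 30.7 CPM in shCON and 19.5, 25.1 and 17.3 CPM in shRB (−0.45 ± 0.13 SE; edgeR adjusted p = 0.027), with shRB 2 just under shCON 1. The IFI6 call was lost without shCON 2 (−0.44, adjusted p = 0.072), shCON 3 (−0.39, adjusted p = 0.11), shRB 1 (−0.41, adjusted p = 0.083) or shRB 3 (−0.33, adjusted p = 0.11), and over all alternatives the adjusted p ranged from 2.4e-05 to 0.11. IFI44 was 1.69 ± 0.50 and 1.52 ± 0.47 CPM and did not pass (edgeR adjusted p = 0.64). IFI44L, which lies beside it on chromosome 1 and is often among the strongest responders to interferon, had 2 counts summed over shCON and 0 over shRB.

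The cytosolic sensors of viral RNA did not pass. DDX58, which encodes RIG-I, read 12.6, 12.3 and 10.5 CPM in shCON and 11.7, 7.32 and 10.2 CPM in shRB (edgeR adjusted p = 0.22). IFIH1, which encodes MDA5, read 11.8, 9.14 and 10.5 CPM in shCON and 9.74, 5.94 and 10.7 CPM in shRB (edgeR adjusted p = 0.34). Both were lowest in shRB 2, and both transcripts are low in GC (40.5% and 43.3%). DHX58, the regulator LGP2, had 25 counts in shCON and 19 in shRB. On the wider list of sensors and adaptors, 4 of 11 genes were tested and 0 passed by edgeR in either direction: MAVS, MYD88, TBK1 and TICAM1, of which TICAM1 was nearest at adjusted p = 0.054. The DNA-sensing adaptor TMEM173 (STING) had 1 to 6 counts per library, IFI16 had 1 count in all, and AIM2, ZBP1 and IKBKE had 0.

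The transcription factors among the members did not pass either. STAT2 was the nearest to the threshold, at 50.8, 55.3 and 52.6 CPM in shCON and 38.7, 48.7 and 43.5 CPM in shRB (log2 fold change −0.28 ± 0.10 SE; edgeR adjusted p = 0.055). Its groups did not overlap, and without shRB 2 it passed as lower (−0.35, adjusted p = 0.00125; range over alternatives 0.00125 to 0.218). IRF9 was 8.33 ± 1.11 and 9.58 ± 0.66 CPM, IRF7 16.6 ± 1.43 and 16.1 ± 2.00 CPM, and IRF1 5.11 ± 0.28 and 5.25 ± 0.35 CPM (SD, n = 3; edgeR adjusted p of 0.31, 0.84 and 0.87). Every window of the counted IRF9 transcript also occurs in a read-through gene, which leaves the IRF9 value uncertain. Of the other interferon regulatory factors, IRF2, IRF3 and IRF5 had log2 fold changes of 0.08, 0.09 and 0.02 with SE of 0.10 to 0.14 and did not pass, and IRF8 was at 0 in every library.

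Upstream of these genes, 4 of the 5 tested receptor genes fell in shRB and 0 rose, beside 12.5% of all IDs tested that were lower. All of the tested receptor genes except IFNGR1 lie on chromosome 21, where 78 of 123 tested IDs were lower. The kinase genes JAK2 and TYK2 fell too. IFNAR1 read 104.9, 100.3 and 104.2 CPM in shCON and 71.1, 61.2 and 80.1 CPM in shRB (log2 fold change −0.54 ± 0.09 SE; edgeR adjusted p = 0.0010). IFNAR2 read 19.0, 18.6 and 21.2 CPM in shCON and 12.5, 13.4 and 12.9 CPM in shRB (−0.60 ± 0.12 SE; edgeR adjusted p = 0.0022). IL10RB, a chain of the type III interferon receptor, read 23.7, 21.8 and 25.5 CPM in shCON and 12.7, 14.1 and 12.3 CPM in shRB (−0.85 ± 0.12 SE; edgeR adjusted p = 0.00015). In all 3 genes the groups were clear of each other. They lie on chromosome 21 with IFNGR2, which was 89.9 ± 2.10 and 78.6 ± 3.91 CPM and did not pass (edgeR adjusted p = 0.075), and the chromosome's median of −0.38 applies to them as to MX1. IFNGR1, the other chain of the interferon gamma receptor, lies on chromosome 6 and fell from 40.4 ± 2.22 to 32.9 ± 2.85 CPM (−0.30 ± 0.10 SE; edgeR adjusted p = 0.044), a call that was lost with any 1 library left out (−0.34 to −0.22). IFNGR2 did pass as lower without shRB 2 (−0.22, adjusted p = 0.019; range over alternatives 0.019 to 0.25), and its groups did not overlap. IFNLR1, the specific chain of the type III receptor, was at 0 in every library.

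**Figure D3:**
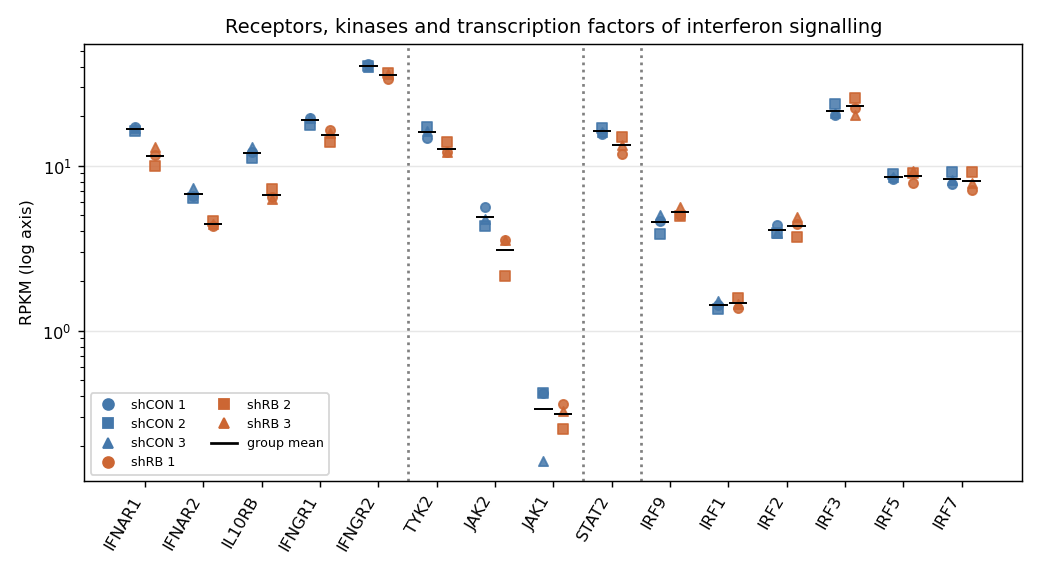
RPKM (log axis) of the receptors, kinases, STAT2 and interferon regulatory factors, with 1 symbol per library and a bar at each group mean; dotted lines separate the 4 classes. JAK1 lies below every other gene drawn, in both groups.

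Among the kinases, JAK1 stood out by its level. It was 0.33 ± 0.15 RPKM in shCON and 0.31 ± 0.055 RPKM in shRB, against 16.03 ± 1.28 and 12.7 ± 1.02 RPKM for TYK2 and 4.90 ± 0.66 and 3.08 ± 0.81 RPKM for JAK2 (levels per transcript length; SD, n = 3). JAK1 had 43, 21 and 5 counts in the shCON libraries against 20, 12 and 17 in the shRB libraries and did not change detectably at this depth (log2 fold change −0.22 ± 0.31 SE; edgeR adjusted p = 0.63). JAK2 fell from 25.9 ± 3.50 to 16.3 ± 4.27 CPM and TYK2 from 69.7 ± 5.56 to 55.4 ± 4.41 CPM (SD, n = 3; edgeR adjusted p of 0.010 and 0.020). JAK2 was lowest in shRB 2 at 11.4 CPM and no longer passed without shCON 1 (−0.55, against −0.68 with all libraries). TYK2 no longer passed without shCON 2, shCON 3, shRB 1 or shRB 3 (−0.31 to −0.27). Interferon RNA stayed at or under the floor of 3 counts: 8 of the 9 ligand genes listed, IFNB1 and IFNG among them, had 0 counts in every library, and IFNL2 had 1 count in each of 2 shCON libraries. A count of 0 over the series allows up to 3 counts, for counting error only.

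Of the 79 further pathway genes, 74 had a row and 42 could be tested. Among those 42 genes 14 fell, 4 rose and the other 24 missed the threshold, that is 42.9% called in either direction beside 25.3% of all IDs tested, and their median log2 fold change was −0.13, beside −0.0062 for all IDs. The 14 include UBA7, which passed the filter only through shCON and had to differ. They also include IFNAR1, IFNAR2 and IL10RB on chromosome 21, where 78 of 123 tested IDs were lower. These summaries describe the tested genes without testing the group. TLR3, MB21D1, GBP2, GBP5 and SAMHD1 were not analysed here. Without shCON 1 or shCON 3, 9 fell, and 2 rose without any 1 of shCON 1, shCON 2, shCON 3 or shRB 3. The brakes on the pathway did not pass: PTPN2 and USP15 were tested without a call, and SOCS1 and SOCS3 had at most 18 counts in a library. The list was chosen with earlier results of these data known.

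Effectors outside the members were likewise divided, with genes of that list changed in both directions. PLSCR1, a phospholipid scramblase, rose from 1.24 ± 0.30 to 2.97 ± 0.50 CPM, TRIM14, an adaptor of MAVS signalling, from 44.0 ± 1.37 to 54.6 ± 2.67 CPM, and NLRC5, the activator of MHC class I genes, from 2.63 ± 0.27 to 4.38 ± 1.43 CPM (SD, n = 3; edgeR adjusted p of 0.0050, 0.020 and 0.045). LGALS3BP, a secreted glycoprotein, fell from 37.3 ± 3.30 to 18.4 ± 2.53 CPM, SP100, a nuclear body protein, from 7.63 ± 1.34 to 4.09 ± 0.64 CPM, and ZC3HAV1, an antiviral zinc finger protein, from 113.4 ± 3.83 to 95.3 ± 5.17 CPM (SD, n = 3; edgeR adjusted p of 3.6e-05, 0.0022 and 0.029). TRIM14 no longer passed without any 1 shCON library or without shRB 3 (0.29 to 0.33), NLRC5, whose groups overlapped, likewise (0.57 to 0.80), and ZC3HAV1 without any 1 shCON library or without shRB 1 (−0.28 to −0.22).

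**Figure D4:**
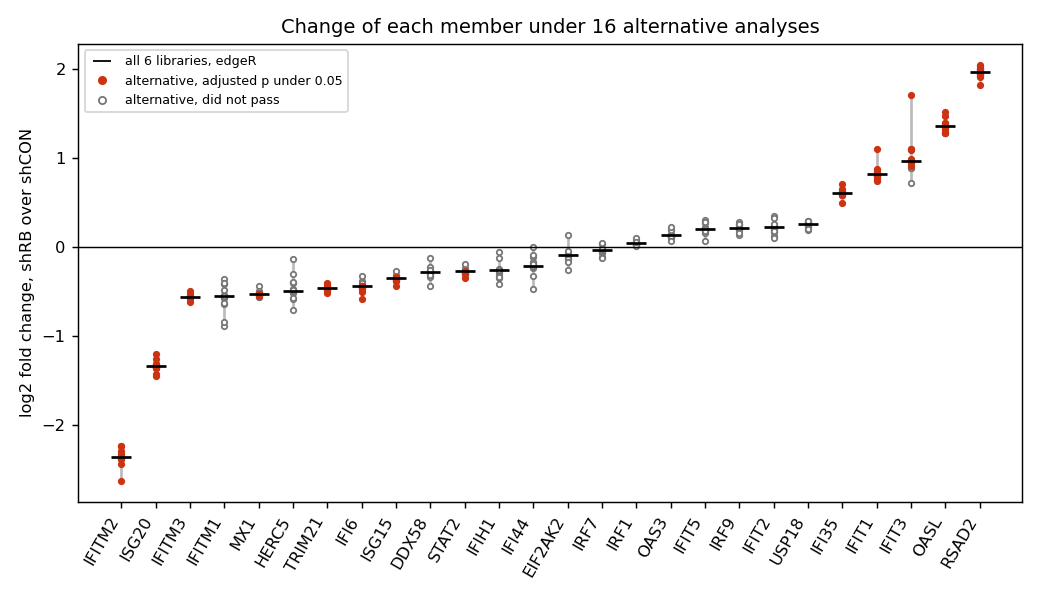
Log2 fold change (shRB over shCON) of the 26 tested members with all 6 libraries (black bars) and under 16 alternative analyses (points; red where the adjusted p was under 0.05). IFITM2, ISG20, IFITM3, TRIM21, IFI35, IFIT1, OASL and RSAD2 are red throughout, whereas MX1, IFIT3, IFI6 and ISG15 are not. RSAD2 passed the filter on low counts only through the shRB libraries, so it had to differ.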

How the data were processed

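RNA was sequenced in 6 LNCaP libraries, 3 shCON and 3 shRB, from total RNA prepared with a TruSeq kit (per the labels' protocols). The authors deposited raw read counts, whole numbers per Ensembl transcript ID without normalization. The submitters' processing notes name STAR, HOMER, edgeR and the build hg19. The annotation, counting options and strand setting were not given in the sources used here. GENCODE release 29 (GRCh38), matched by transcript ID (22182 of 22279), gave gene names, chromosomes, transcript lengths and sequences (for GC and windows shared between genes) and the 5′ ends set beside the promoters, but no coordinates of the counts. The 97 unmatched IDs (0.38% of counts) were kept. Promoter sequences are RefSeq's (GRCh38.p14), and DDX58 was matched by its current symbol.

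All IDs were tested together in edgeR 4.0.16 (R 4.3.3): filterByExpr at defaults (minimum count 10, total 15; 0.99 CPM in at least 3 libraries), TMM, and the quasi-likelihood F test with group as the only term, with Benjamini-Hochberg adjusted p under 0.05. The SE is the log2 fold change divided by the square root of F. Pairs of replicates had a chi-square of 2.23 to 11.4 per degree of freedom over their counts, above sampling noise, so none was a duplicate. Counting error covers sequenced reads only. Procedures were tested on simulated data. Alternatives were DESeq2 1.42.0, voom in limma 3.58.1, robust fitting, 3 normalizations, 2 filters, a replicate block, the 20 most abundant IDs left out, a threshold of 0.01 and each library left out, and the sum of the 3 IFITM rows was added after seeing the data. All members are accounted for, and of the pathway list the receptors, signalling genes and IRF genes are named, with other genes where they passed, except that some listed genes are counted in the totals but not reported here by name; sensors, brakes and untested ligands outside that rule are named as counts, chosen after their values were seen. The members and lists were chosen with earlier results of these data known.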

Additional observations from a re-analysis of the deposited data

How the results depend on the processing

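The call of 8 of the 12 members that passed held in all 16 alternatives at the 0.05 threshold (IFITM2, ISG20, IFITM3, TRIM21, IFI35, IFIT1, OASL and RSAD2), and none of the 30 called members and pathway genes changed sign. RSAD2 passed the filter on low counts only through the shRB libraries and had to differ, so its steady call adds no evidence. Leaving out 1 library gave 4 to 5 members higher and 4 to 7 lower, 2 to 5 pathway genes higher and 9 to 15 lower, and a member median log2 fold change of −0.26 to −0.12. At an adjusted p under 0.01, 4 members and 2 pathway genes were higher and 4 members and 8 pathway genes lower. The median was −0.22 under DESeq2, −0.24 without a filter (both over 32 members), −0.17 under limma-voom, −0.18 with upper quartile scaling and −0.17 with library totals. The replicate block gave a median of −0.11, with 5 members higher and 7 lower and 6 and 15 pathway genes; only MX1 lost its call among the members (adjusted p = 0.052) and STAT2 gained one (adjusted p = 0.0062), as did the receptor gene IFNGR2 (adjusted p = 0.020). Same-numbered libraries did not deviate together in every pair (correlations of 0.24, 0.35 and −0.00032), nor did every library correlate best with its own number, so the numbers were not taken as pairs. Over all IDs the block called 2203 higher and 2294 lower, against 1499 and 1459 without it, and 863 and 912 passed without shCON 1. DESeq2 lost IFIT3, MX1, IFNGR1 and NLRC5 (adjusted p of 0.086, 0.28, 0.082 and 0.12), and library totals lost IFIT3, IFNGR1 and NLRC5 (0.0501, 0.0501 and 0.057). NLRC5 was also lost under limma-voom (0.079) and upper quartile scaling (0.052), and MX1 under limma-voom (0.056) and without a filter (0.063). Upper quartile scaling and library totals each called STAT2 (0.038 and 0.037) and IFNGR2 (0.046 and 0.047) lower, and limma-voom (0.0496) and no filter (0.041) called STAT2. Values near 0 changed sign without a call for EIF2AK2 (0.13 without shRB 2), IRF2 (−0.0096 without shRB 3), IRF5 (−0.0035 with upper quartile scaling, −0.0071 without shCON 1 and −0.031 without shRB 3) and IRF7 (0.032 without shCON 2 and 0.039 without shRB 1). With 1 library left out these ran from −0.26 to 0.13 for EIF2AK2, −0.0096 to 0.18 for IRF2, −0.031 to 0.098 for IRF5 and −0.13 to 0.039 for IRF7. The causes were not tested. Depth limits OAS1, OAS2, BST2, DHX58, IFI44L and MX2, which could not be tested, and JAK1 and HERC5, whose SE was about 0.3. The SE was of similar size for IFITM1 (0.35) and IFI44 (0.30), and for the called genes IFIT3 (0.31), RSAD2 (0.30) and UBA7 (0.34).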
